A study of Homo sapiens with 4 samples.

Results

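H4K20me3 peaks that lay at the promoters of protein-coding genes outside the zinc finger, protocadherin, USP17L and FAM90A families were examined in proliferating and senescent fibroblasts. A peak was included when it lay on chromosomes 1 to 22 except 19 and shared at least 1 base with the 2000 bases on either side of the start of such a gene, in the GENCODE release 44 annotation of GRCh37. The symbols left out were those that begin with ZNF, ZFP, ZSCAN, ZKSCAN, PCDH, USP17L or FAM90A. Of 2836 peaks in the list of proliferating cells, 218 qualified, and of 35535 peaks in the list of senescent cells, 519 did. On the same chromosomes, 2132 peaks of the first list and 29893 of the second reached no such promoter, and these are called other peaks below.

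The cells were IMR90, a line of normal diploid fibroblasts from human fetal lung that stops dividing after a limited number of divisions. Proliferating cells (PRO) were taken at population doubling 32, and replicative senescent cells (RS) at population doubling 86. Both states were grown in 3% oxygen, and each was profiled by ChIP-seq with 2 rabbit monoclonal antibodies to H4K20me3, one from Millipore and the other from Cell Signaling, which gave 4 samples. The domains found with both antibodies were merged into 1 peak list per state, so the lists carry no value per sample, no peak height and no read depth. No difference between PRO and RS therefore has a replicate error or a test, and the results hold for 1 cell line. The list of the same study's differential regions, made with DiffBind, is used only for overlap because it states no direction.

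H4K20me3 is laid down mainly by the enzymes KMT5B and KMT5C, which are brought to chromatin by HP1 bound to H3K9me3, and it is best known from silent chromatin at pericentromeres, telomeres and transposable elements. Most human promoters lie in CpG islands, short stretches that are rich in G and C and keep their CpG dinucleotides because they are usually free of DNA methylation. Elsewhere, methylated CpG has been lost over evolution, so tissue-restricted genes often have promoters that are poor in CpG. CpG content is given here as the ratio of observed to expected CpG, that is, the number of CpG dinucleotides against the number that the C and G content of the same sequence would give.

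CpG content can be read directly from the 200 bases just upstream of gene starts that lay wholly inside a peak. The examples are some of the genes with the most promoter bases in peaks among promoters with little exactly repeated sequence. Inexact copies were not counted, and each stretch lies outside annotated exons. Sequences are from GRCh37, written 5′ to 3′ on the strand of the gene, with every CpG in capitals. With a PRO peak and no RS peak, SUMO3 (chr21:46238695-46238894, minus strand) held 22 CpG, SNAPIN (chr1:153630979-153631178, plus strand) 15, MED12L (chr3:150802873-150803072, plus strand) 14 and NDFIP1 (chr5:141488144-141488343, plus strand) 25.
SUMO3: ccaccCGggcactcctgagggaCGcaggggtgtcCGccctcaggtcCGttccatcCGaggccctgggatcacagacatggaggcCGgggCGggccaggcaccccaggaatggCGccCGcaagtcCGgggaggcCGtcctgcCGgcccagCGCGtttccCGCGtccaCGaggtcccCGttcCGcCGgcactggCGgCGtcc
SNAPIN: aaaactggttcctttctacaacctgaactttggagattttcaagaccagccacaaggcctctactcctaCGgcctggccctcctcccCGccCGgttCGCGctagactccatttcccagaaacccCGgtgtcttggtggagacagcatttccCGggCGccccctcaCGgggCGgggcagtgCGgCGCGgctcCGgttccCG
MED12L: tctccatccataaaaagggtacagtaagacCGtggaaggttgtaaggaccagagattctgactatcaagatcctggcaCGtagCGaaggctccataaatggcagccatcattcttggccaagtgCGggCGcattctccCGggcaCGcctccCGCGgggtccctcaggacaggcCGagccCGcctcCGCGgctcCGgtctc
NDFIP1: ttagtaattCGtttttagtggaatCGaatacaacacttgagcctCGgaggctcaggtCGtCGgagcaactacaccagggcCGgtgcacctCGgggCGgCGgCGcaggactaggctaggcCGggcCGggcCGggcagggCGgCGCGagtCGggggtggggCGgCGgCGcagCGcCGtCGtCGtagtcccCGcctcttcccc

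With a peak in both lists at the promoter, ANKRD30BL (chr2:133015543-133015742, minus strand) held 21 CpG and EIF3M (chr11:32605144-32605343, plus strand) 19. The upstream stretch of EIF3M lay wholly in the PRO peak, whereas its RS peak ended inside it. ANKRD30BL is also in the list of segmentally duplicated families described below. Whether reads from inexact copies reached the peaks of ANKRD30BL was not tested.
ANKRD30BL: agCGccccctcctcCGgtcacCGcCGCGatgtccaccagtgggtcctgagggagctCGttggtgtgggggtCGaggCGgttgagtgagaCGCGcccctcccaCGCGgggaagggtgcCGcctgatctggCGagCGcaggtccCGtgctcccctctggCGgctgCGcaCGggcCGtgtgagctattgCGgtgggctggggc
EIF3M: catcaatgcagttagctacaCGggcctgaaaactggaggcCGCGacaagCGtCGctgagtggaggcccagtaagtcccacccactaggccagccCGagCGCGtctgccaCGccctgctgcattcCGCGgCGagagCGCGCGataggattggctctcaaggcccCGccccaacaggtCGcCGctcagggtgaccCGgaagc

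With an RS peak and no PRO peak, examples were found at both ends of the range. SLC25A2 (chr5:140683617-140683816, minus strand) held 21 CpG, whereas C10orf90 (chr10:128487278-128487477, minus strand) held 8 and SMIM35 (chr11:117959015-117959214, minus strand) 3.
SLC25A2: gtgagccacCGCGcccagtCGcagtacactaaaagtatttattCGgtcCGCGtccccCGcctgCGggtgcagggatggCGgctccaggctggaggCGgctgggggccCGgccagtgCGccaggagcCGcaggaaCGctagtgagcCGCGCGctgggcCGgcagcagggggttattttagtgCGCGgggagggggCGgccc
C10orf90: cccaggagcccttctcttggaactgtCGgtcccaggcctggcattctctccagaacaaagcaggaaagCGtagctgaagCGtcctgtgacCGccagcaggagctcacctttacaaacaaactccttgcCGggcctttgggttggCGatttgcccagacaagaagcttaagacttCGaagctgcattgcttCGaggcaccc
SMIM35: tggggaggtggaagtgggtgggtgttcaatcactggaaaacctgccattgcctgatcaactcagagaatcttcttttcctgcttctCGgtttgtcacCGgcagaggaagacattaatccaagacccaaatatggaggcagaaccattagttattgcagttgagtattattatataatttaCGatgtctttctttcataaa

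These stretches are examples and not the whole set, and the genes of each class overlapped in CpG number. Over all 17344 eligible promoters the 200 bases upstream held a median of 12 CpG. The median was 15 for genes with a peak in PRO alone, 14 for genes with a peak in both lists and 9 for genes with a peak in RS alone.

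A promoter peak was found at 248 genes in PRO, 1.43% of all eligible promoters, and at 512 genes in RS, 2.95%. The number of genes was thus 2.06 times higher in RS and the number of promoter peaks 2.38 times higher, while the number of other peaks was 14.02 times higher. A total of 189 genes had a peak in PRO alone, 453 in RS alone and 59 in both, and 16643 had none. Of the PRO genes, 23.8% also had an RS peak (95% Clopper-Pearson interval 18.6% to 29.6%), and of the RS genes, 11.5% also had a PRO peak (8.89% to 14.6%). Intervals here cover counting error only and treat genes or peaks as independent, although 14.7% of the PRO promoter peaks and 10.0% of the RS promoter peaks reached at least 2 gene starts.

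Promoter peaks of proliferating cells were mostly not shared with the senescent list. Of the 218, 48 (22.02%, interval 16.7% to 28.1%) overlapped an RS peak, compared with 1165 of the 2132 other PRO peaks (54.6%, 52.5% to 56.8%). Only 11 (5.05%) overlapped a DiffBind region, compared with 9.62% of other PRO peaks. A total of 162 PRO promoter peaks (74.3%) thus met no RS peak and no DiffBind region, compared with 882 of the 2132 other PRO peaks (41.4%). In the opposite direction, 52 of the 519 RS promoter peaks (10.0%) overlapped a PRO peak, above the 3.38% of other RS peaks. A DiffBind region was met by 222 RS promoter peaks (42.8%), close to the 43.7% of other RS peaks.

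Promoter peaks differed in CpG content between the lists. Among peaks of at least 201 bases, the median CpG ratio was 0.796 in 205 PRO promoter peaks (quartiles 0.584 and 0.885) and 0.418 in 508 RS promoter peaks (0.243 and 0.617). Other peaks were poorer in CpG in both lists, with medians of 0.279 in PRO and 0.192 in RS. Median GC content was 66.4% in PRO promoter peaks and 54.2% in RS promoter peaks, whereas other peaks had 48.9% and 49.6%. PRO promoter peaks held a median of 8.36 CpG per 100 bases and RS promoter peaks 3.00.

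**Figure D1:**
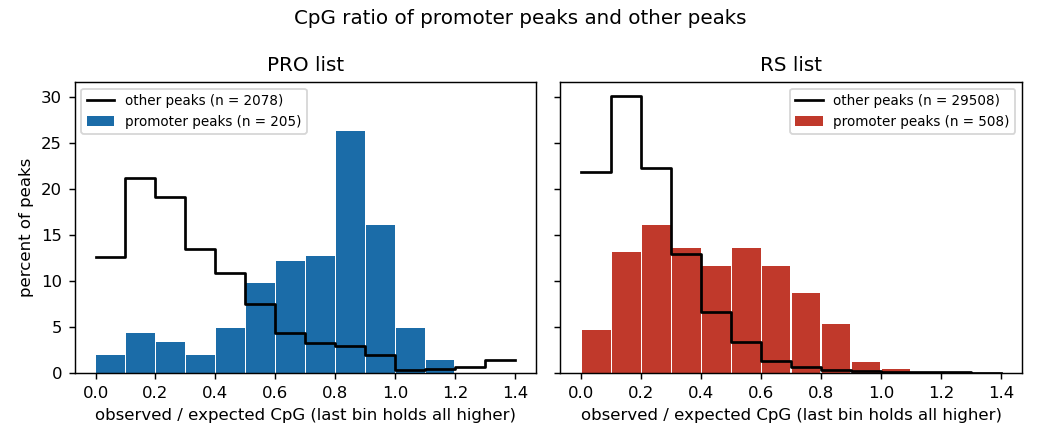
Observed over expected CpG of promoter peaks (filled bars) and other peaks (black line) of at least 201 bases, as a percent of peaks per bin of 0.1, in the PRO list (left) and the RS list (right). PRO promoter peaks cluster at high ratios, with a median of 0.796, whereas RS promoter peaks spread from low to high ratios, with a median of 0.418, and other peaks lie at low ratios in both lists.

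The same contrast was seen with a threshold that resembles the usual definition of a CpG island. A CpG ratio over 0.6 together with a GC content over 50% was found in 150 of 205 PRO promoter peaks (73.2%, interval 66.6% to 79.1%) and in 134 of 508 RS promoter peaks (26.4%, 22.6% to 30.4%). The shares were 9.28% and 2.06% in other peaks. GC content over 70% was found in 71 PRO promoter peaks (34.6%) and in 6 RS promoter peaks (1.18%). Conversely, a CpG ratio under 0.3 was found in 9.76% of PRO and 34.1% of RS promoter peaks. GC-rich DNA can be over- or under-represented in sequencing libraries, and the part of library preparation in these shares was not tested.

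The CpG content of PRO promoter peaks also varied with whether the peak met the senescent list. The 48 PRO promoter peaks that overlapped an RS peak had a median CpG ratio of 0.575 and a median GC content of 54.0%. The 157 without an RS peak and of at least 201 bases had 0.838 and 68.5%. RS promoter peaks inside DiffBind regions had a median CpG ratio of 0.341, and those outside had 0.491. Of these 4 groups, the PRO promoter peaks without an RS peak thus had the highest median and the RS promoter peaks inside DiffBind regions the lowest.

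The promoters behind these peaks were then classed by their own sequence. A promoter was called CpG-rich when any 500-base window within 2000 bases of the start had a CpG ratio over 0.75 and GC over 55%, CpG-poor when no window exceeded a ratio of 0.48, and intermediate otherwise. CpG-rich promoters made up 66.6% of all eligible promoters, 90.3% of PRO genes (224 of 248, interval 85.9% to 93.7%) and 57.2% of RS genes (293 of 512, 52.8% to 61.6%). The share was 92.6% for genes with a peak in PRO alone, 83.1% for genes in both lists and 53.9% for genes in RS alone. Read the other way, a PRO peak lay at 1.94% of CpG-rich, 0.541% of intermediate and 0.264% of CpG-poor promoters. An RS peak lay at 2.54%, 4.23% and 3.25%, respectively.

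Ordering all promoters by the CpG ratio of the 500 bases on either side of the start, in 10 bins of equal size, gave a finer view. The share with a PRO peak was 0.519% in the lowest bin and 2.54% in the highest, where the intervals did not overlap (0.237% to 0.982% and 1.85% to 3.39%). The share with an RS peak was 3.52% in the lowest bin, reached 5.24% in bin 4 (4.24% to 6.40%), where CpG ratios ran from 0.403 to 0.606, and was 1.499% in the highest bin (0.981% to 2.19%). In the 2 highest bins, more promoters had a PRO peak than an RS peak, 38 against 28 and 44 against 26, although the intervals overlapped in both.

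**Figure D2:**
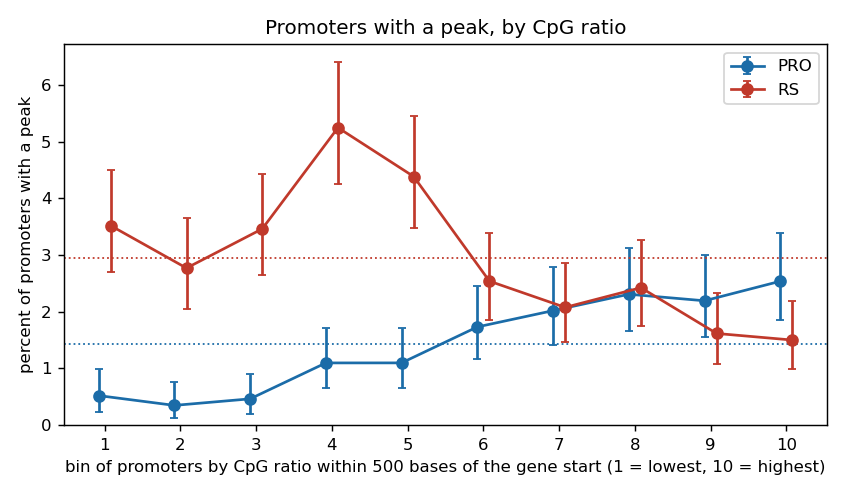
Percent of eligible promoters with a PRO peak (blue) or an RS peak (red), in 10 equal bins of the CpG ratio around the gene start, with 95% Clopper-Pearson intervals as error bars and the percent over all promoters as dotted lines (1.43% and 2.95%). The PRO share is higher in the CpG-rich bins, and the RS share is highest in bin 4 and lowest in bin 10.

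Within a promoter, peaks lay on its CpG-rich side more often in PRO than in RS. Where at least 200 bases of the window were in a peak and at least 200 were not, the covered bases held more CpG than the uncovered ones in 196 of 223 PRO genes (87.9%) and in 348 of 488 RS genes (71.3%). The median was 8.32 CpG per 100 bases in covered and 3.25 in uncovered bases of PRO genes, and 3.24 and 2.32 in RS genes. Among CpG-rich promoters alone the counts were 180 of 202 PRO genes and 184 of 281 RS genes.

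Width differed less than CpG content. The median width was 601 bases in PRO promoter peaks (quartiles 401 and 801) and 801 in RS promoter peaks (601 and 1201), and other peaks had the same medians of 601 and 801. The mean was 860 bases in PRO (SD 2018 across peaks) and 1181 in RS (SD 1690 across peaks). Peaks of at least 2000 bases made up 5.05% of PRO promoter peaks (11 peaks) and 12.1% of RS promoter peaks (63 peaks), whereas among other peaks the order was opposite, with 11.5% in PRO and 8.02% in RS. At the short end, 13 PRO and 11 RS promoter peaks were 1 base wide. Peak ends lay 1 base past a grid of 200 bases, and whether these peaks reflect that way of writing ends was not tested. CpG content did not rise or fall steadily with width: the median CpG ratio of PRO promoter peaks was 0.668 at 201 to 400 bases, 0.821 at 401 to 800 bases, 0.795 at 801 to 1200 bases and 0.700 above that, and in RS it stayed between 0.376 and 0.461.

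**Figure D3:**
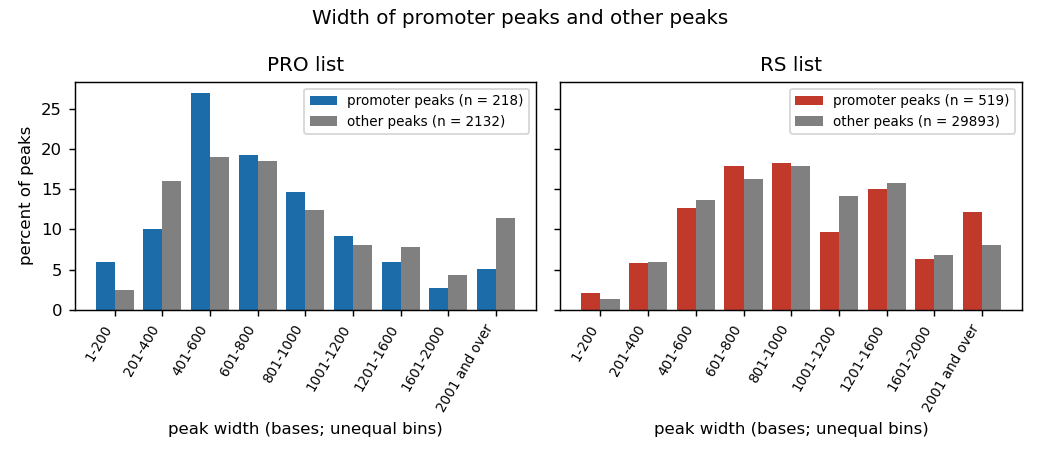
Width of promoter peaks (coloured) and other peaks (grey) in the PRO list (left) and the RS list (right), as a percent of peaks per bin of bases, with bins of unequal size. PRO promoter peaks gather at 401 to 600 bases with few above 2000, and RS promoter peaks are shifted to wider bins, with medians of 601 and 801 bases.

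Position relative to the gene start was similar in part. A gene start was covered by 67 PRO promoter peaks (30.7%, interval 24.7% to 37.3%) and by 154 RS promoter peaks (29.7%, 25.8% to 33.8%). PRO promoter peaks lay wholly downstream of the nearest start in 43.1% and wholly upstream in 26.1%, while RS promoter peaks did so in 32.8% and 37.6%. An exon of a protein-coding transcript was met by 63.3% of PRO and 52.0% of RS promoter peaks. The share of PRO genes covered by a peak was highest 200 to 299 bases downstream of the start, at 40.1%, and was 4.29% at the upstream edge of the window and 9.004% at the downstream edge. The share of RS genes was highest 300 to 399 bases downstream, at 37.4%, and remained at 15.8% and 16.9% at the edges.

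**Figure D4:**
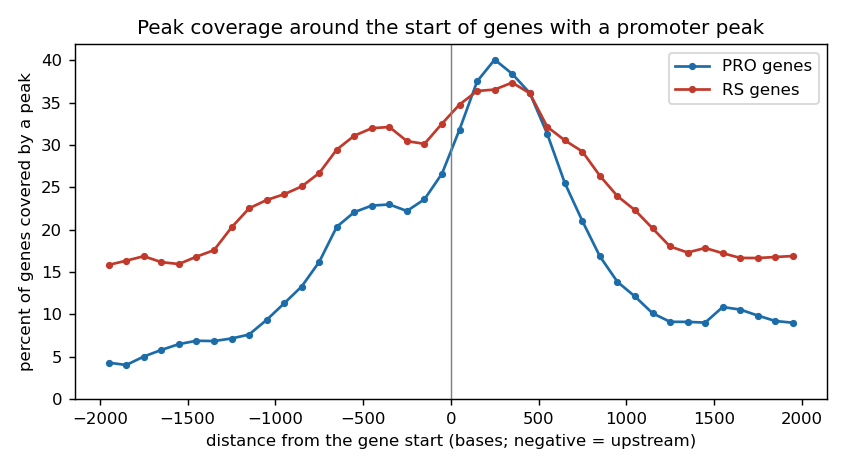
Percent of genes with a promoter peak that were covered by a peak in each 100-base bin, against distance from the gene start in bases, for 248 PRO genes (blue) and 512 RS genes (red). Both profiles are highest just downstream of the start, at 40.1% and 37.4%, and the RS profile is flatter, with 15.8% and 16.9% at the edges of the window.

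The boundary of the window mattered more for RS. Just inside it, with the nearest base 1501 to 2000 bases from a start, lay 15 PRO peaks with a median CpG ratio of 0.436 and 72 RS peaks with 0.251. Just outside it, at 2001 to 2500 bases, lay 6 PRO peaks with 0.467 and 88 RS peaks with 0.205. Peaks within 500 bases of a start that did not cover it numbered 87 in PRO, with a median CpG ratio of 0.843, and 156 in RS, with 0.495.

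Sequence that occurs more than once limits what a peak at a gene can mean, because reads from one copy can be placed at another. A peak with at least one 75-base window that is found elsewhere in the genome made up 21.1% of PRO promoter peaks, against 69.9% of other PRO peaks, and 44.9% of RS promoter peaks, against 48.4% of other RS peaks. Promoters of which at least 50% was repeated numbered 21 among PRO genes (8.47%) and 83 among RS genes (16.2%), compared with 2.73% of all promoters. The share of PRO genes with an RS peak was 57.1% in those 21 and 20.2% in the 208 promoters with under 5% repeated windows. In promoter peaks free of repeated windows the median CpG ratio was 0.823 in PRO (160 peaks) and 0.439 in RS (277 peaks), so the contrast in CpG was also present there.

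The 8 genes with the most bases in peaks in PRO alone were ranked among promoters with under 5% repeated windows. SUMO3, which encodes a small protein that is attached to other proteins, had 2494 of 4001 promoter bases in 1 PRO peak of 2601 bases (chr21:46238201-46240801). Its covered bases held 5.41 CpG per 100 and its uncovered bases 11.4, the opposite order to that in 196 of 223 PRO genes. CDK13, a kinase of transcription elongation, and SNAPIN, a protein of vesicle transport, each had 1801 bases, and MED12L, a paralogue of a Mediator subunit, had 1601. HMGA2, NDFIP1, RBPMS and SLC25A51 had 1201 each. All 8 promoters were CpG-rich, compared with 92.6% of all genes with a peak in PRO alone. Ranking by bases favours a covered start, because the window is centred on it, and 51 of 189 genes (27.0%) in the whole class had it covered. Among the 8 ranked genes, 7 had the start covered. The exception was HMGA2, an architectural chromatin protein, whose peak began 761 bases downstream of the start. Of the 8, NDFIP1, an adaptor of ubiquitin ligases, had bases in a DiffBind region (1401), and the other 7 had none.

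The 8 genes with the most bases in peaks in RS alone were ranked in the same way. ACRBP, a protein of the sperm acrosome, had 3403 promoter bases in an RS peak of 6001 bases, and 3803 bases in DiffBind regions. C10orf90 had 3278 bases, CCDC166 2801, SLC25A2, a mitochondrial ornithine carrier, 2787, and SMIM35 2602. SLC1A7, a glutamate transporter of the retina, had 2403, CTAGE1, a cancer-testis gene, 2325, and S100A3, a calcium-binding protein of hair, 2269. Of these 8 promoters, 3 were CpG-rich (ACRBP, CCDC166 and SLC25A2), 2 were intermediate and 3 were CpG-poor. The start was covered in 7, which the ranking again favours, compared with 142 of 453 genes (31.3%) in the whole class. DiffBind regions reached 6 of the 8, all but CCDC166 and SLC25A2. The window of CCDC166 also touched a gene of the left-out families. In the whole class, 221 of 453 genes with a peak in RS alone (48.8%) had bases in a DiffBind region, against 9 of 189 in PRO alone (4.76%). The counts were 6 of 59 genes with peaks in both lists (10.2%) and 258 of 16643 with neither peak (1.55%), against 2.85% of all promoters. DiffBind regions were computed from the same samples, so a low share at genes with neither peak is built in. The paper reports that by far the most of its differential peaks were more enriched in RS. A higher share in RS alone than in PRO alone is therefore no separate result about these promoters.

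In the 59 genes with peaks in both lists, 53 had bases shared by both and 17 had the start covered in both. RS peaks covered more promoter bases than PRO peaks in 38 genes, fewer in 12 and the same number in 9, and the medians were 1175 and 601 bases. ANKRD30BL had 3860 bases in PRO and 3461 in RS, and FRG1, a gene near the end of the long arm of chromosome 4, had 1801 in both lists, in a peak with the same borders. TIGD7, a gene derived from a DNA transposon, had 1801 bases in PRO and 2529 in RS, in an RS peak of 13201 bases, and its window also touched a left-out gene. CDIP1 had 1201 in both.

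At some of these genes the peaks of both lists covered different bases. EIF3M, a translation initiation factor subunit, had 1601 bases in a PRO peak across the start (chr11:32604601-32606201, CpG ratio 0.831) and 601 in an RS peak that ended 143 bases upstream of it (chr11:32604601-32605201, 0.494). PPCS, an enzyme of coenzyme A synthesis, and ZMYND12 share a bidirectional promoter. There the PRO peak (chr1:42921601-42922801, CpG ratio 0.772) and the RS peak (chr1:42920801-42921601, 0.652) had 1 base in common. TEX14, a germ cell gene, had 801 bases in PRO and 1001 in RS, of which 401 were shared.

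Where repeats were not limited, members of duplicated families were among the 4 highest genes of each class. The limit of 5% had not removed all of them. ANKRD30BL and FRG1, ranked above among genes with peaks in both lists, also belong to the list of segmentally duplicated families. In PRO alone these were SUMO3, RGPD4 with 2148 bases and 38.0% of windows repeated, H3C14 with 2001 bases and 100% repeated, and CDK13. In both lists, DUX4, ANKRD30BL, REXO1L1 and PRR20B led. DUX4, the gene of the D4Z4 repeat, had all 4001 promoter bases in peaks of both lists, with 100% of its windows repeated. REXO1L1 had 2676 bases in both lists, and PRR20B 2601 in PRO and 2224 in RS. In RS alone, TAF11L4 had 4001 bases, TAF11L6 3624 and TAF11L5 and TAF11L9 3602 each, with 81.1% to 88.6% of windows repeated. In the list of 284 eligible genes from segmentally duplicated families, 17 (5.99%) had a PRO peak, against 1.43% of all promoters, 53 (18.7%) an RS peak, against 2.95%, and 13 both. Without peaks that hold a repeated window, 0 of these genes had a PRO peak and 1 an RS peak. Of the 57 with a peak in either list, 49 had promoters at least 50% repeated, so which copy carried the mark cannot be told apart.

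Histone genes were the list with the highest share of PRO peaks. Of 69 eligible genes, 9 (13.04%) had a PRO peak, against 1.43% of all promoters, and 1 (1.45%) had an RS peak, against 2.95%. The 9 genes shared 5 peaks, since histone genes lie in close pairs: H2AC13, H2BC13 and H3C10 met 1 peak of 401 bases, H2AC14 and H2BC14 1 of 201, and H2AC15 and H2BC15 1 of 601, all on chromosome 6. H3C6 had 401 bases, 974 bases downstream of its start, and H3C14 on chromosome 1 had 2001. The median CpG ratio of the 5 peaks was 0.852. Much of this sequence is near-identical between copies: 4 of the 5 peaks held a repeated window, and without such peaks 1 of the 69 genes remained, H3C6. That share is close to the 194 of all 17344 promoters with a PRO peak in the same setting. The RS peak lay at H1-7, a linker histone gene of the testis. Outside the symbols of the list, and picked after their values were seen, H3-7 had 802 bases in PRO with 59.1% of windows repeated, HIST2H2AA3 shared the PRO peak of H3C14, and H2AJ had 401 bases in RS.

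Keratin-associated protein genes, which encode proteins of the hair shaft, had peaks in RS alone. None of the 94 eligible promoters had a PRO peak, against 1.43% of all promoters, and 17 (18.1%) had an RS peak, against 2.95%. The 17 RS peaks had a median width of 801 bases and a median CpG ratio of 0.272. None of the list is CpG-rich, and PRO peaks were rare at such promoters, at 0.541% of all intermediate and 0.264% of all CpG-poor ones. KRTAP10-8 had 2201 bases, KRTAP4-16 1202, and KRTAP19-2 and KRTAP2-4 1201 each, and 9 of the 17 had the start covered. Bases in DiffBind regions were found at 10 of the 17, against 44.3% of all RS genes. Leaving out peaks with a repeated window left 5 of the 17 genes. These 5 of 94 promoters stand against 292 of all 17344 promoters with an RS peak in the same setting. Olfactory receptor genes, which encode odorant receptors and are silent in fibroblasts, had 1 PRO and 21 RS peaks among 394 promoters (0.254% and 5.33%). The shares over all promoters were 1.43% and 2.95%. OR5C1 had 2201 bases and OR1L4 2069. Without peaks that hold a repeated window, 8 of the 394 genes kept an RS peak. That share is close to the 292 of all 17344 promoters in the same setting.

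**Figure D5:**
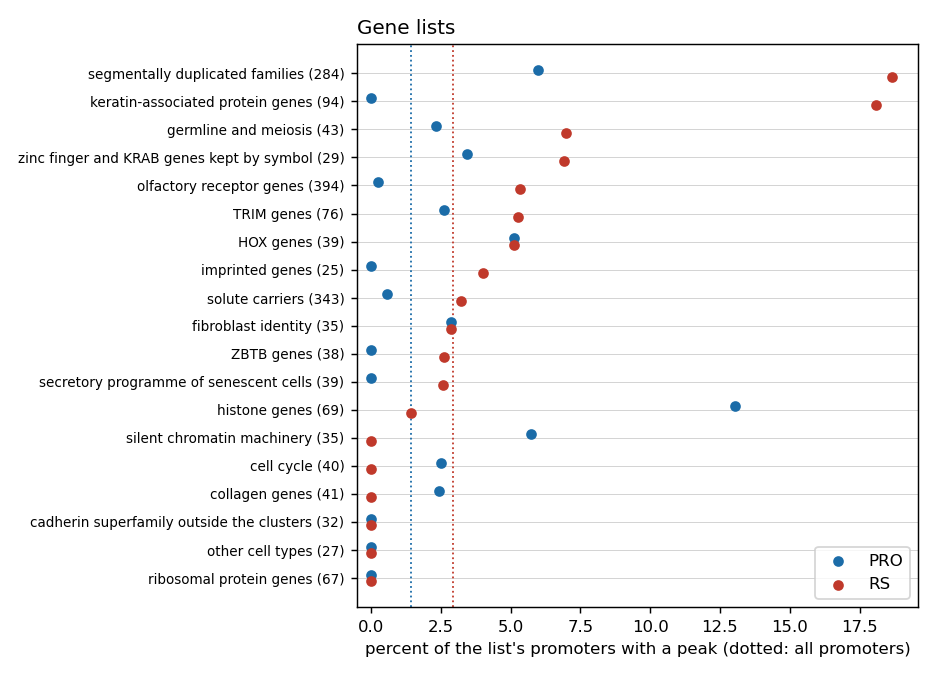
Percent of the promoters of each gene list with a PRO peak (blue) or an RS peak (red), with the number of eligible promoters in brackets and dotted lines at the percent over all promoters (1.43% and 2.95%). Histone genes stand at 13.04% in PRO and 1.45% in RS, and keratin-associated protein genes and segmentally duplicated families stand at 18.1% and 18.7% in RS.

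Genes of proliferation and senescence each had 1 gene with a peak. Of 40 cell cycle genes, 1 had a PRO peak (2.50%) and none an RS peak. It was MKI67, the proliferation marker Ki-67, with a PRO peak of 401 bases that began 86 bases downstream of the start (chr10:129924201-129924601, CpG ratio 0.921) and lay in a DiffBind region. Of 39 genes of the secretory programme of senescent cells, none had a PRO peak and 1 had an RS peak (2.56%), the interleukin receptor gene IL1R1 with 1201 bases beginning 597 bases downstream, at a CpG-poor promoter and in a DiffBind region. With 1 gene in each list, nothing is read from these shares against the 1.43% and 2.95% of all promoters.

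Fibroblast genes and markers of other cell types were set against the 1.43% of all promoters with a PRO peak and the 2.95% with an RS peak. Of 35 fibroblast identity genes, 1 had a PRO peak and 1 had RS peaks (2.86% each). PRRX1, a mesenchymal transcription factor, had a PRO peak (469 promoter bases) and S100A4, a calcium-binding protein, had RS peaks (1391 bases) that also reached S100A3. None of 27 markers of other cell types had a peak in either list. Of 41 collagen genes, 1 (2.44%), COL12A1, had a PRO peak of 1001 bases and none had an RS peak. These lists describe promoters with a peak and say nothing of expression, which was not analysed here.

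Chromatin and developmental lists had 0 to 3 genes with a peak in each of PRO and RS, and their shares are to be read against the same 1.43% and 2.95%. Of 35 genes of silent chromatin machinery, 2 had a PRO peak (5.71%), HMGA2 and TASOR, a subunit of the HUSH silencing complex with 601 bases, and none had an RS peak. HOXA4 (801 bases) and HOXB5 (201) had PRO peaks, and HOXD12 (402) and HOXC12 (1) had RS peaks, among 39 HOX genes (5.13% in each list). Of 43 germline and meiosis genes, 1 had a PRO peak (2.33%) and 3 had RS peaks (6.98%), TDRD6, TEX14 and SYCE1. SYCE1 had 63 promoter bases in its RS peak, and 61.3% of its promoter windows were repeated. Among 25 imprinted genes, 1 (4%), MKRN3, had an RS peak of 801 bases. Among 29 zinc finger or KRAB genes whose symbols the rule kept, RBAK had peaks in both lists, 401 bases in PRO and 2053 in RS, and KRBA1 had 1331 bases in RS, which makes 3.45% in PRO and 6.90% in RS.

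The other lists were of housekeeping and large gene families. Ribosomal protein genes (67) and cadherins outside the clusters (32) had no peak in either list. Solute carriers had 2 PRO and 11 RS genes of 343 (0.583% and 3.21%), TRIM genes 2 and 4 of 76 (2.63% and 5.26%), among them TRIM71 with 1889 bases in RS, and ZBTB genes 0 and 1 of 38 (2.63% in RS), the latter ZBTB43. No list was tested against all promoters, for which the shares were 1.43% and 2.95%.

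Promoters with a peak were spread over all 21 chromosomes in both lists. The share of promoters with a PRO peak was highest on chromosomes 7 (3.24%, 29 genes) and 13 (3.14%, 10 genes) and lowest on chromosome 14 (0.327%, 2 genes). The share with an RS peak was highest on chromosomes 13 (5.35%, 17 genes) and 21 (4.80%, 11 genes). Chromosome 6, which carries the main histone clusters, was the single chromosome with more PRO than RS genes, 21 (2.04%) against 16 (1.56%). Genes that share a peak were each counted there, such as H2AC13, H2BC13 and H3C10, H2AC14 and H2BC14, and H2AC15 and H2BC15. The peaks behind these histone genes all held repeated windows, and the order of PRO and RS on this chromosome was not tested.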

How the data were processed

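H4K20me3 was profiled by ChIP-seq in PRO and RS IMR90 cells with 2 antibodies each. Per the study's methods, the authors mapped single-end reads with Bowtie2 2.1.0 (build hg19), called domains with SICER 1.1 in windows of 200 bp against a ChIP of total histone H4, and intersected the domains of both antibodies. The submitters' processing notes also name CASAVA 1.8.2, Trim Galore 0.3.0, Picard 1.98 and DiffBind 1.8.3. The deposited lists hold positions only (chromosome, start and end), with no counts, scores or p-values, so a domain missed with either antibody is absent, and read depth, which would set the precision, was not used here. The sources name different count models for the differential list, which is shorter than that of the study and was used as deposited.

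Peaks were treated as half-open intervals and are printed 1-based. Protein-coding genes came from GENCODE 44 mapped to GRCh37, and the gene start was the outermost start. Overlap was counted from 1 base. CpG measures were computed from the GRCh37 sequence for peaks of at least 201 bases. Repeated sequence was measured as 75-base windows with an exact copy on either strand elsewhere in the genome, and inexact copies were not counted. Shares have 95% Clopper-Pearson intervals. No test was made between states, because each has 1 list. Python 3.11.15 with numpy 2.4.6, pandas 2.3.3 and scipy 1.17.1 was used, and overlap, CpG and repeat counts were checked on simulated data.

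The members and the 19 gene lists were chosen with earlier results of these data known. For each class of genes (both lists, PRO alone, RS alone) the 8 genes with the most promoter bases in peaks among promoters under 5% repeated were named, then the 4 highest whatever the repeats, and up to 4 genes with a peak from each list. PRO bases ranked the first and second class and RS bases the third. Genes named beyond this rule, such as further histone genes, were picked after their values were seen. Alternatives covered the window, the overlap, peak width, repeats, transcript starts, chromosomes, the left-out families, joining of peaks and the CpG class. Upstream sequences were computed for more genes than those printed, and the others are not reported here.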

Additional observations from a re-analysis of the deposited data

How the results depend on the processing

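Of 266 values computed for 24 results under 12 alternatives, 213 stayed within 1.5 times the reported count or ratio, or within the 95% interval of the reported share or median, and 53 did not. The median CpG ratio was higher in PRO and the median width higher in RS under each of the 11 alternatives that change peaks, and the share of CpG-rich promoters was higher in PRO under all 12. With a window of 1 kb, the RS median CpG ratio was 0.485 and 39.7% of RS peaks covered a start. With 5 kb, RS had 1037 peaks and 945 genes, 3.19 times PRO, with a median CpG ratio of 0.297, 47.3% over DiffBind regions and 14.9% over a start, and 83.8% of PRO genes were CpG-rich. Among peaks of at least 1000 bases, PRO had 50 peaks at 55 genes and RS 224 at 240, a ratio of 4.36. Their median widths were 1201 and 1401, the PRO median CpG ratio was 0.739, starts were covered by 60% of PRO and 43.8% of RS peaks, and 51.8% of RS peaks met DiffBind regions. Without peaks holding a repeated window, RS had 286 peaks at 292 genes, 14.9% of PRO genes had an RS peak, the PRO median width was 501, and 94.8% of PRO and 66.8% of RS genes were CpG-rich. With every transcript start, 82.9% of PRO genes were CpG-rich, 41.3% of PRO peaks covered a start and the RS median CpG ratio was 0.366. Joining peaks within 1000 bases gave an RS median width of 1001. Classing by a CpG ratio over 0.6 near the start gave CpG-rich shares of 83.1% and 49.8%. The causes of these moves were not tested, beyond the fewer or wider peaks that each setting makes by construction.

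No paired analysis was possible because each state is represented by a single merged list. That list also holds no value of either antibody alone, so dropping each antibody could not be run. Read depth was not used here, so what it limits in the PRO list was not tested. The paper reports that peaks of both antibodies overlapped far more in RS than in PRO. In its read statistics the share of duplicate reads differed widely between the samples of each state and was highest in a PRO sample. How far this bears on the comparison of the lists was not tested.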

Other observations

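Genes were also counted by the letters their symbols share, and the groups given here were picked after their values were seen. The TBC1D, PRR and FAM groups hold genes that the list of segmentally duplicated families already counts. In RS, 11 of 40 genes with symbols in TBC1D had a peak (27.5%), and 8 of 12 in TAF11L (66.7%). The counts were 5 of 7 in TP53TG (71.4%) and 8 of 30 in PRR (26.7%), against 2.95% of all promoters. At least 50% of the promoter was repeated in 10, 8, 5 and 5 of these genes, in that order. Keratin genes (KRT, which build the filaments of epithelial cells) had an RS peak at 5 of 55 promoters, 9.09% against 2.95% of all promoters, and 0 of the 5 promoters were mostly repeated. In PRO, symbols in FAM were the single group with 5 or more genes, 5 of 152 (3.29%), against 1.43% of all promoters. Of these 5 promoters, 2 were at least 50% repeated.

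BRCA2, a gene of DNA repair, and its neighbour ZAR1L, an oocyte gene that starts close by on the opposite strand, shared peaks in both lists and were likewise picked after their values were seen. The PRO peak of 401 bases (chr13:32888801-32889201) lay wholly inside the RS peak of 1001 bases (chr13:32888401-32889401), with CpG ratios of 0.658 and 0.506.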
